A study of Mus musculus with 44 samples.

Results

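The voltage-gated sodium channel genes were followed across the nucleus accumbens of mice given a virus carrying RXRa, the alpha form of the retinoid X receptor, or one carrying a fluorescent control. RXRa is a ligand-gated transcription factor of the nuclear receptor class. The 8 genes, 5 for alpha subunits (Scn1a, Scn2a, Scn3a, Scn8a, Scn9a) and 3 for beta subunits (Scn2b, Scn3b, Scn4b), were taken by symbol from 55487 gene identifiers, and all 8 passed the filter on low counts in both tables. The study's question, from its title and design, is how RXRa controls the accumbens transcriptome, in whole tissue and in D1 and D2 nuclei. Bulk tissue came from males infused with HSV-GFP (4 libraries) or HSV-RXRa-GFP (4), where HSV is a herpes simplex virus vector. Nuclei sorted as D1 or D2, named for striatal neurons that express Drd1 or Drd2, came from animals infused with AAV9-CAG-DIO-EGFP or AAV9-CAG-DIO-EGFP-P2A-RXRa, adeno-associated viruses in which the broadly active CAG promoter drives an insert that only cells with Cre recombinase express. These groups held 5 EGFP and 4 RXRa libraries in D1 females, 5 and 4 in D1 males, 4 and 4 in D2 females, and 5 and 4 in D2 males. The labels give no age, strain, Cre line or time after infusion, and nothing in them says that libraries of a group came from separate animals, so p-values measure the spread between these libraries, which may be technical. One further sorted library, whose title and vector label name different vectors, was left out of all comparisons.

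Voltage-gated sodium channels open on depolarisation and carry the inward current of the action potential. A pore-forming alpha subunit is enough to make a channel, and beta subunits, single-pass membrane proteins of the immunoglobulin family, adjust its gating, its surface level and its adhesion to other proteins. In striatal projection neurons these channels set how input from cortex and thalamus becomes spiking, and the beta subunit gene Scn4b is known for high expression in striatum. RXRa binds DNA as a partner of other nuclear receptors at repeats of the hexamer AGGTCA, called the half-site.

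The genes lie on 3 chromosomes, 6 of them near another member, with positions from GENCODE M21 on GRCm38. On chromosome 2, Scn3a (65457118 to 65567627, minus strand) and Scn2a (65620771 to 65767447, plus strand) are 53.1 kb apart, and Scn1a (66270778 to 66440840) and Scn9a (66480080 to 66634962), both on the minus strand, are 39.2 kb apart. On chromosome 9, Scn2b (45117782 to 45130070) and Scn4b (45138395 to 45154152) lie 8.32 kb apart on the plus strand, with Scn3b (40269217 to 40291618, plus strand) further off. Scn8a is on chromosome 15 (100869858 to 101045938, plus strand). Alpha genes span 111 to 176 kb and beta genes 12.3 to 22.4 kb, against exon lengths of 11.1 to 15.8 kb and 4.66 to 5.46 kb. Other genes are annotated over part or all of Scn1a, Scn3a, Scn9a, Scn2b and Scn3b. The use of strand in counting is not given in the sources used here, so reads of these 5 genes and of their overlapping partners cannot be told apart with certainty. Gm13629 overlaps 65947 bases of Scn9a on the other strand and had a mean of 960 counts in the sorted libraries. Gm10684 covers all 12289 bases of Scn2b on the other strand and had a mean of 542 counts there.

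Promoter windows, 250 bases before to 50 after a RefSeq start (GRCm38.p6), were in the table used for 6 of the 8 genes. The windows below are shown because they hold the half-site of the overexpressed receptor (Scn1a and Scn8a) or belong to the gene with the largest fold change in D2 nuclei and to its neighbour (Scn2b and Scn4b). They read 5′ to 3′ on the gene's strand, and capitals mark AGGTCA, searched on both strands. They lie at chr2:66440788-66441087 (minus strand), chr15:100936021-100936320, chr9:45117626-45117925 and chr9:45138374-45138673 (plus strand).
Scn1a: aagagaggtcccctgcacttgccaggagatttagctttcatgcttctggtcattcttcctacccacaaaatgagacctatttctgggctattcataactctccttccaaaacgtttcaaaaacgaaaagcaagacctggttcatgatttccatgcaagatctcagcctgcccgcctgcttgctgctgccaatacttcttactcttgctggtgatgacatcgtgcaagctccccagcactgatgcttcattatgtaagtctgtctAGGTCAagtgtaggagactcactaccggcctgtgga
Scn8a, second start: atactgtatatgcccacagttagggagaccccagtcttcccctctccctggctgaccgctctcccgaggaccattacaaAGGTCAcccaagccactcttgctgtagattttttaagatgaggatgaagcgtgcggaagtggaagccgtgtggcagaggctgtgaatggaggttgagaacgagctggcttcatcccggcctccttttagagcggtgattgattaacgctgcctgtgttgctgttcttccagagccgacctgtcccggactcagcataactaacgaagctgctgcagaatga
Scn2b: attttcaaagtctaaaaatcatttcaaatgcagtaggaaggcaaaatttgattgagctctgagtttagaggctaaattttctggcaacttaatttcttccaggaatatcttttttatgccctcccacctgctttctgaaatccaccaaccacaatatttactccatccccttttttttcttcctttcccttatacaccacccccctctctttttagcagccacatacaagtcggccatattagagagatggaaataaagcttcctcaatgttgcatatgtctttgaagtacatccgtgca
Scn4b: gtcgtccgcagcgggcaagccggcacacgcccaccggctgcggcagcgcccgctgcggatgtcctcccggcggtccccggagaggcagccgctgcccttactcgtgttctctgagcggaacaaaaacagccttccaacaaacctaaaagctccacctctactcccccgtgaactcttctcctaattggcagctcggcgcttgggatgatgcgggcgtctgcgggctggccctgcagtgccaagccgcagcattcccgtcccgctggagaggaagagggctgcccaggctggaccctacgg
The half-site begins 14 bases after the first base of Scn1a and 171 bases before that of the second Scn8a start. It was in 16.3% of 32851 windows of all genes, and the windows of Scn2a, Scn9a, Scn2b and Scn4b and the first Scn8a window hold no AGGTCA. No window of a member holds 2 half-sites as a direct repeat spaced by 1 base (AGGTCANAGGTCA), which 13 windows of all genes do, nor by 2, 4 or 5 bases. A match is a description of letters and does not show a binding site. GC content was 33.0% in the first Scn2a window and 38.3% in that of Scn2b, against a median of 52.7% over all windows, and 66.3% in that of Scn4b and 70.0% in the first of Scn8a.

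The 8 bulk libraries held 21567565 to 29167142 counts each and the 35 sorted ones 12211655 to 27757463. Levels are CPM (counts per 1000000 of the library size after TMM scaling, edgeR's correction for composition). The vector's RXRa sequence was at 0 in the 4 bulk GFP libraries, at 22.1 to 37.7 CPM in bulk RXRa, at most 0.877 CPM in sorted EGFP and 43.4 to 710.2 CPM in sorted RXRa. The labelled populations separated on Drd2, at 49.0 to 106.2 CPM in the 18 D1 libraries and 519.7 to 1779 CPM in the 17 D2 libraries. Drd1 was at 30.7 to 83.8 CPM in D1 and 6.49 to 38.6 CPM in D2, which overlap. In the sorted libraries, genes with no count in any bulk library still had counts in proportion to the length of the gene body. Over 1576 such protein-coding genes, called silent genes below, the correlation of log counts with body length was 0.763, against 0.0608 with exon length. Their median was 0.303 to 0.595 CPM per kb of gene body in single libraries, here per 1000000 of the library total without TMM scaling. This silent-gene density, rescaled to the TMM library size, serves as each library's background. The density was lower with RXRa, at 0.303 to 0.550 in D2 RXRa against 0.491 to 0.580 in D2 EGFP, and 0.371 to 0.562 in D1 RXRa against 0.450 to 0.595 in D1 EGFP. After rescaling, the mean background of Scn1a, for example, was 78.3 CPM in D2 RXRa and 90.2 CPM in D2 EGFP nuclei.

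In bulk tissue, Scn4b had the highest level of the family per kb of exon, followed by Scn2b. Over all 8 libraries, Scn4b averaged 164.5 ± 18.9 CPM per kb of exon (SD, n = 8) and Scn2b 81.7 ± 8.56. Scn3b, a beta subunit of the same fold, followed at 27.4 ± 2.17. Among the alpha genes, Scn2a led at 23.4 ± 3.15 CPM per kb of exon, and Scn8a, the main channel of mature initial segments and nodes, had 16.3 ± 2.72. Scn1a, known for its role in fast-spiking interneurons, had 7.12 ± 1.98, and Scn3a, best known from embryonic brain, had 6.97 ± 0.644. Scn9a, best known from peripheral pain neurons, was lowest at 0.997 ± 0.137. In this order, 3 neighbouring pairs had overlapping ranges, namely Scn3b with Scn2a, Scn2a with Scn8a, and Scn1a with Scn3a. In the first 2 of these pairs all 8 libraries kept the order, while Scn1a was above Scn3a in 4 of 8.

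**Figure D1:**
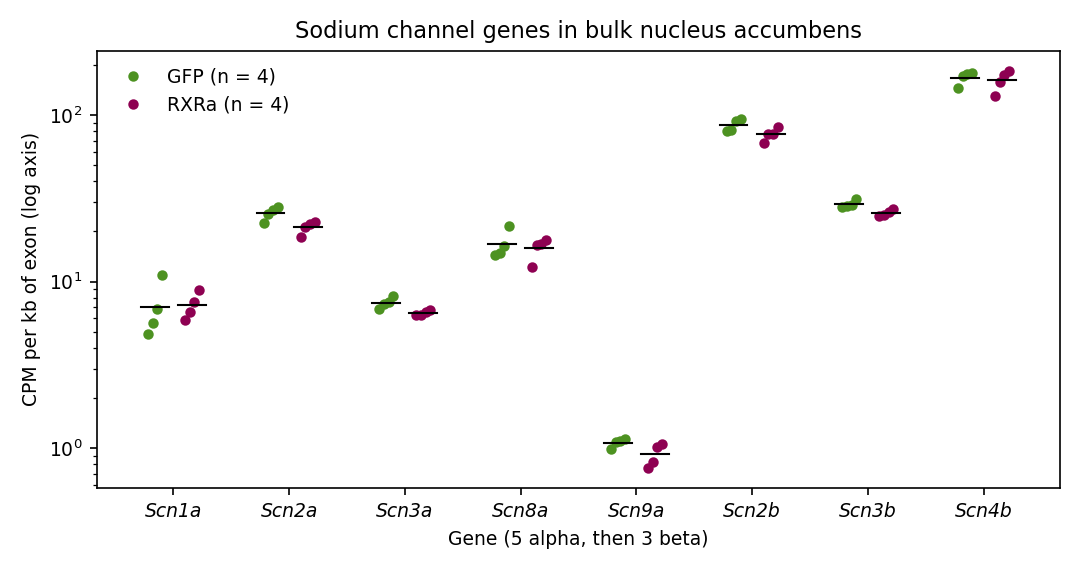
Levels of the 8 genes in bulk accumbens, in CPM per kb of exon on a log axis. Each point is a library (4 GFP, 4 RXRa) and each bar is a group mean. Scn4b is highest and Scn9a lowest in every library.

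In sorted nuclei, where counts followed gene bodies, levels were set per kb of gene body. Scn4b was again highest, at 4.08 ± 1.82 CPM per kb of body (SD, n = 35). Scn2a followed at 2.19 ± 0.671, then Scn3b at 1.90 ± 0.578, Scn3a at 1.60 ± 0.367 and Scn2b at 1.52 ± 0.689. Scn8a had 1.12 ± 0.195, Scn1a 1.11 ± 0.230 and Scn9a 0.574 ± 0.0587. The order is over all groups together and differed between them: Scn2b had a lower mean than Scn3a in D1 EGFP nuclei (1.19 against 1.38 CPM per kb of body) and a higher one in D2 RXRa nuclei (2.30 against 1.99). Only Scn1a and Scn9a, as neighbours in this order, did not overlap in range. Within libraries Scn4b was above Scn2a in 35 of 35 and Scn2a above Scn3b in 33 of 35, while Scn8a was above Scn1a in 20 of 35. The silent genes had a median of 0.501 CPM per kb of body, with 5th and 95th percentiles of 0.176 and 0.771. Scn9a lay above 69.2% of them, so its sorted level was within the range of genes without a bulk count. The other 7 genes lay above 99.4% to 100% of them.

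**Figure D2:**
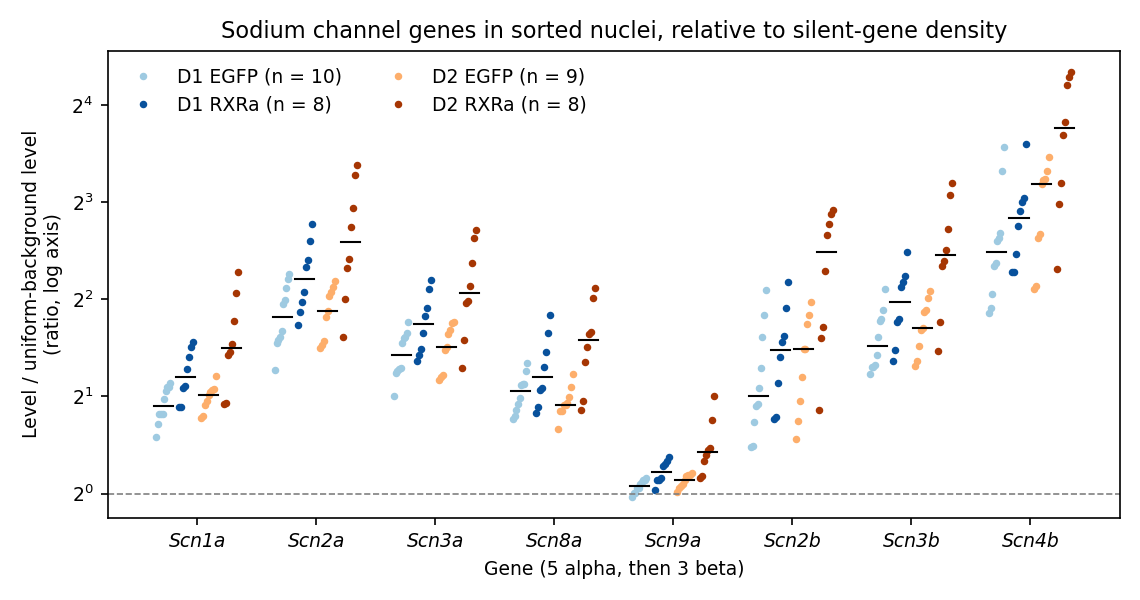
Level of each gene in each of the 35 sorted libraries, divided by the level that the library's silent-gene density would give over the gene body (log axis; the dashed line is a ratio of 1). Bars are medians. Scn9a sits near 1 in D1 EGFP and D2 EGFP nuclei, and Scn4b has the highest median in every group.

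Median ratios to that background ranged widely between genes. In D1 EGFP nuclei the median ratio to background was 1.06 for Scn9a, 1.87 for Scn1a, 2.07 for Scn8a and 5.61 for Scn4b. In D2 RXRa nuclei the medians were 1.35 for Scn9a, 2.83 for Scn1a, 2.98 for Scn8a and 13.5 for Scn4b. Scn2a made up 31.6% ± 2.23 (SD, n = 10) of the summed alpha level per kb of body in D1 EGFP, 33.5% ± 1.81 (n = 8) in D1 RXRa, 31.7% ± 2.05 (n = 9) in D2 EGFP and 34.5% ± 3.37 (n = 8) in D2 RXRa. Scn4b made up 52.6% ± 3.90, 51.6% ± 1.95, 55.9% ± 4.00 and 54.6% ± 2.46 of the summed beta level in the same order. The ranges of the 4 groups overlapped for both shares. No background was subtracted for these shares, so they also depend on each library's silent-gene density. Scn9a, close to background, still made up 9.47% of the alpha sum in D1 EGFP. In bulk, per kb of exon, Scn9a made up 1.85% and Scn2a 42.8%.

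In bulk tissue, 7 of the 8 genes had a lower mean with RXRa than with GFP, and none was called, that is, none had a Benjamini-Hochberg adjusted p under 0.05 in edgeR's quasi-likelihood test. Of all 18579 genes tested, 3.7% were called. An unadjusted p under 0.05 was reached by 3 members, Scn2a, Scn3a and Scn3b, and by 3990 of the 18579 genes. In limma voom no member was called. Scn3a was at 90.7, 85.4, 94.2 and 101.5 CPM in GFP libraries 1 to 4 and at 84.0, 78.6, 81.7 and 79.0 CPM in RXRa libraries 1 to 4. All 4 RXRa libraries were below all 4 GFP libraries, and the log2 fold change was -0.20 (SE 0.06, adjusted p = 0.0964 in edgeR). Scn3b was at 157.1, 151.9, 156.0 and 170.1 CPM with GFP and 148.0, 134.5, 136.1 and 142.6 CPM with RXRa. Its groups did not overlap either, with a log2 fold change of -0.18 (SE 0.05, adjusted p = 0.106 in edgeR). Scn2a was at 321.6, 286.5, 358.6 and 341.8 CPM with GFP and 271.7, 290.9, 281.0 and 235.0 CPM with RXRa, a log2 fold change of -0.28 (SE 0.09, adjusted p = 0.113 in edgeR). RXRa library 2 and GFP library 2 made its groups overlap. With DESeq2 in place of edgeR, 2 members were called, Scn3a at -0.19 (adjusted p = 0.0459) and Scn3b at -0.17 (adjusted p = 0.0381), while DESeq2 called 1619 genes in all against 687 by edgeR. In bulk, fewer cells of a type and less RNA per cell cannot be told apart. Markers of striatal projection neurons (6 of 6 measured) summed to 3345 to 3779 CPM with GFP and 3003 to 3349 CPM with RXRa, and D2 neuron markers (5 measured) to 1642 to 1946 CPM and 1503 to 1675 CPM. Oligodendrocyte markers (6 measured) summed to 4313 to 4855 CPM with GFP and 2610 to 4506 CPM with RXRa, and astrocyte markers (5 measured) to 1812 to 2333 CPM and 1906 to 2773 CPM. No marker of these lists was at 0 throughout a group, and their part in the result was not tested.

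The remaining members overlapped between the bulk groups. Scn2b had a log2 fold change of -0.18 (SE 0.08), Scn9a of -0.24 (SE 0.12), Scn8a of -0.08 (SE 0.15), Scn4b of -0.06 (SE 0.11) and Scn1a of 0.03 (SE 0.24). When single libraries were left out, the sign turned for Scn8a (-0.15 to 0.06), Scn4b (-0.13 to 0.04) and Scn1a (-0.12 to 0.32) and for none of the other 5. The median over the 8 members was -0.18, against -0.02 over all genes tested. Scn1a had the widest spread, at 53.8, 62.4, 122.0 and 76.1 CPM in GFP libraries 1 to 4 and 83.4, 72.7, 98.7 and 65.4 CPM in RXRa libraries 1 to 4. Its 3 highest libraries were GFP 3, RXRa 3 and RXRa 1. The same 3 were highest for Scn8a, at 339.3, 280.1 and 264.4 CPM against 192.5 to 262.0 CPM in the other 5. They were not the 3 highest for any other member. Markers of cortical excitatory neurons (6 of 6 measured, none at 0 throughout a group) summed to 735.8, 546.7 and 462.8 CPM in those 3 libraries and to 7.71 to 101.6 CPM in the other 5. Interneuron markers were highest in GFP 3 as well, at 555.4 CPM against 340.4 to 463.2 CPM in the other 7. The 8 libraries fall into a low and a high set on cortical markers, so no correlation is given, and the part of these cells in the Scn1a and Scn8a levels was not tested. Without the 3 libraries, the Scn1a fold change was 0.14 (SE 0.13) and no member was called.

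**Figure D3:**
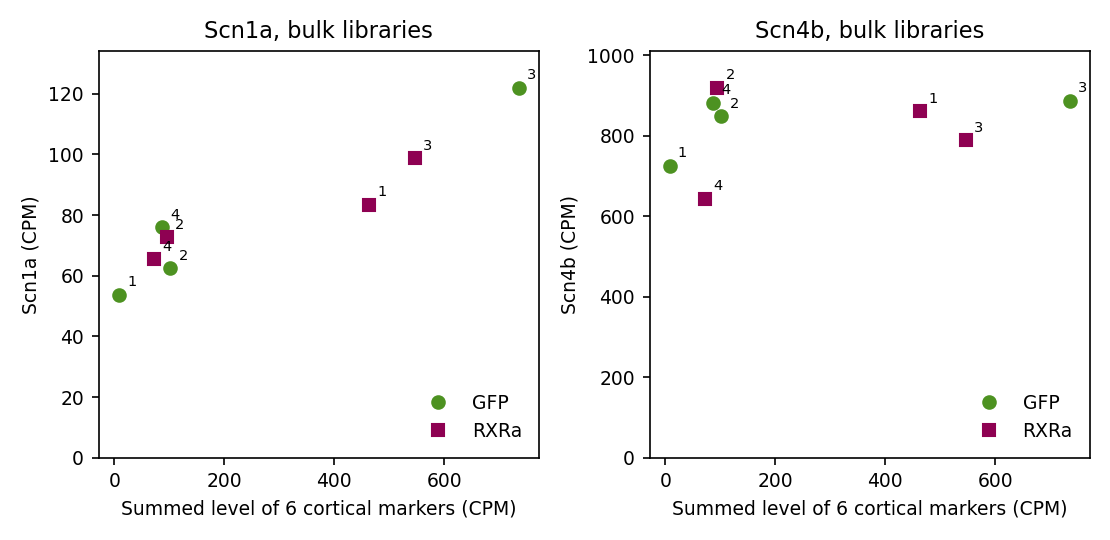
Scn1a (left) and Scn4b (right) in each bulk library in CPM, against the summed level of 6 cortical excitatory markers in CPM. Numbers are replicate numbers. The 3 libraries above 400 CPM of markers have the 3 highest Scn1a levels, while Scn4b spans 643.9 to 919.6 CPM with no such order.

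In D1 nuclei no member was called between RXRa and EGFP, and 0% of 43902 genes were. All 8 log2 fold changes were above 0, from 0.02 for Scn9a to 0.27 for Scn2a (SE 0.15, adjusted p = 0.645 in edgeR), with a median of 0.15 against -0.01 over all genes tested. With silent-gene density as a covariate 5 of the 8 turned below 0 (range -0.19 to 0.03), and with library totals in place of TMM Scn9a alone did (-0.05). None had an unadjusted p under 0.05, and DESeq2 and limma voom called none. Scn2a ranged from 261.9 to 465.3 CPM (median 317.0) in the 8 RXRa libraries and from 190.3 to 358.0 CPM (median 259.1) in the 10 EGFP libraries. All 8 RXRa libraries were above the EGFP median, and 1 of them, male RXRa 1, was above every EGFP library. Scn4b ranged from 41.3 to 72.4 CPM with RXRa and from 30.7 to 89.8 CPM with EGFP, so its EGFP libraries spread more widely than its RXRa libraries. Within one sex, 0% of genes and 0 of 8 members were called in D1 females and in D1 males, and none had an unadjusted p under 0.05 in either. The fold changes were above 0 for 7 of 8 members in each sex, and with the density covariate for 0 in females and 5 in males.

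In D2 nuclei, 6 of the 8 members were called higher with RXRa and none lower. Over all 43902 genes, 22.1% were called and 14.9% were called higher. The median log2 fold change was 0.48 over the members and -0.04 over all genes tested. Scn2b rose most, by a log2 fold change of 0.72 (SE 0.23, adjusted p = 0.0292 in edgeR). Its levels were 38.2, 21.6, 35.8 and 16.3 CPM in female RXRa libraries 2 to 5 and 12.1, 25.7, 18.03 and 11.7 CPM in female EGFP libraries 1, 3, 4 and 5. In males they were 11.5, 26.3, 40.5 and 36.1 CPM in RXRa libraries 1, 2, 3 and 5 and 9.71, 24.2, 18.2, 15.5 and 19.8 CPM in EGFP libraries 1 to 5. In all, 5 of 8 RXRa libraries were above every EGFP library, and male RXRa 1 was among the lowest. Scn3b rose by 0.55 (SE 0.14, adjusted p = 0.0131 in edgeR), from 29.8 to 48.2 CPM (median 38.3) with EGFP to 32.0 to 82.1 CPM (median 57.1) with RXRa.

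The 4 alpha genes other than Scn9a rose in D2 nuclei. Scn2a was at 480.8, 315.4, 590.1 and 320.9 CPM in female RXRa libraries 2 to 5 and 210.5, 355.1, 283.6 and 246.0 CPM in female EGFP libraries 1, 3, 4 and 5. In males it was at 230.5, 341.2, 542.6 and 569.1 CPM in RXRa libraries 1, 2, 3 and 5 and 226.4, 339.6, 272.9, 330.3 and 308.9 CPM in EGFP libraries 1 to 5. Of the 8 RXRa libraries, 4 were above every EGFP library of either sex, and the log2 fold change was 0.57 (SE 0.16, adjusted p = 0.0144 in edgeR). Scn3a rose by 0.42 (SE 0.12, adjusted p = 0.0174 in edgeR). Scn1a rose by 0.39 (SE 0.10, adjusted p = 0.0124 in edgeR), with 165.6 to 318.6 CPM (median 223.2) in RXRa and 155.5 to 198.0 CPM (median 179.7) in EGFP libraries. Scn8a rose by 0.39 (SE 0.09, adjusted p = 0.0113 in edgeR), with 171.7 to 294.6 CPM (median 232.5) against 158.1 to 200.9 CPM (median 182.2). For Scn1a and Scn8a, 6 of 8 RXRa libraries were above every EGFP library. Scn9a, at 85.4 to 120.1 CPM against 82.0 to 99.4 CPM, had a log2 fold change of 0.13 (SE 0.05, adjusted p = 0.0768 in edgeR). Scn4b had 0.57 (SE 0.23, adjusted p = 0.0646 in edgeR), a value as large as that of Scn2a with a wider error, at 40.4 to 153.2 CPM against 36.4 to 95.2 CPM.

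**Figure D4:**
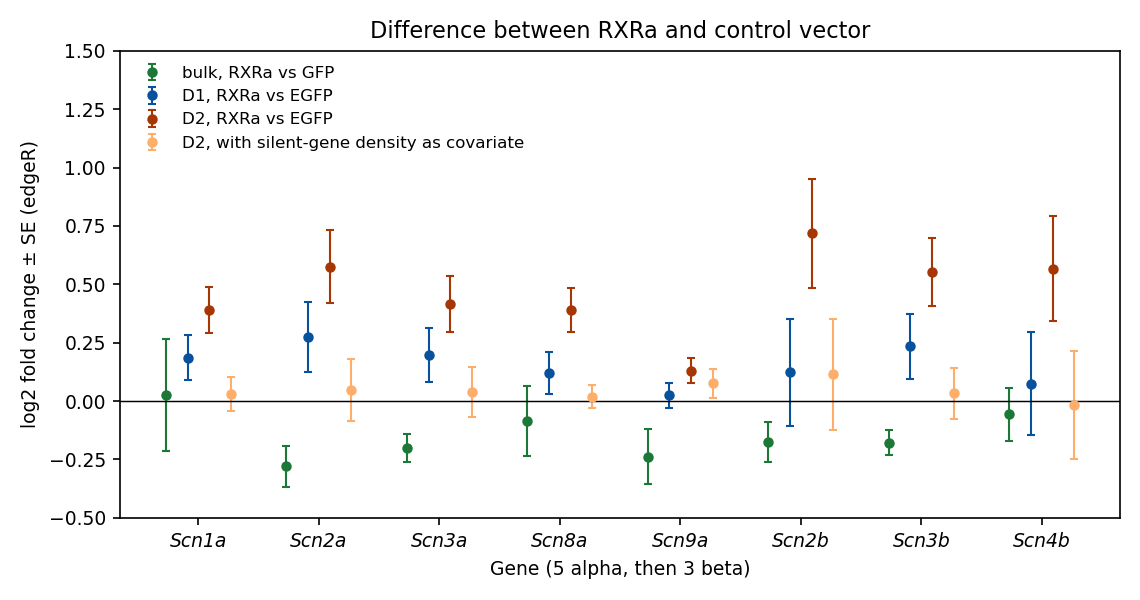
Log2 fold change of each gene with its standard error for RXRa against the control vector in bulk, D1 and D2, and for D2 with silent-gene density as a covariate. In D2 all 8 points lie above 0, and with the covariate they lie between -0.02 and 0.11.

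Several other measures moved with these D2 differences. Silent-gene density was lower in the D2 RXRa libraries, as given above, and density and gene levels are shares of the same total. With density as a covariate no member was called, 0 genes of all were, and the members' log2 fold changes were 0.03 for Scn1a, 0.05 for Scn2a, 0.04 for Scn3a, 0.02 for Scn8a, 0.08 for Scn9a, 0.11 for Scn2b, 0.03 for Scn3b and -0.02 for Scn4b. Density and vector were partly confounded, so their parts cannot be fully told apart. After the background was subtracted from each level, the log2 ratio of the D2 group means was above 0 for every member and was 0.78 for Scn2a, 0.82 for Scn1a and 1.09 for Scn2b. That sign was fixed beforehand, since with RXRa every member's mean level was higher and its mean background lower. It is therefore no separate evidence of a rise. Markers of D2 neurons (5 measured, none at 0) had a median sum of 1866 CPM in D2 female RXRa against 929.3 CPM in D2 female EGFP and 1945 against 1329 CPM in males. Markers of striatal projection neurons (6 of 6, none at 0) had 1900 against 1181 CPM in females and 1968 against 1458 CPM in males. Median sums were lower with RXRa in both sexes for markers of D1 neurons, cortical neurons, interneurons, astrocytes, oligodendrocyte precursors and endothelial cells. Cortical markers, for example, had 128.5 against 149.9 CPM in females and 130.4 against 142.6 CPM in males. Microglia and oligodendrocyte markers were lower in females and higher in males. Within the D1 neuron markers, Drd1, Pdyn and Tac1 went against their sum, each with a higher mean with RXRa in both sexes. Drd1 averaged 19.9 CPM with RXRa against 11.7 CPM with EGFP in D2 females and 25.9 against 12.8 CPM in D2 males. The other markers of that list are not given singly. No background was subtracted from any marker level or sum, and silent-gene density was lower in the D2 RXRa libraries. The part of background in the marker differences, and the part of these differences in the result, were not tested.

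**Figure D5:**
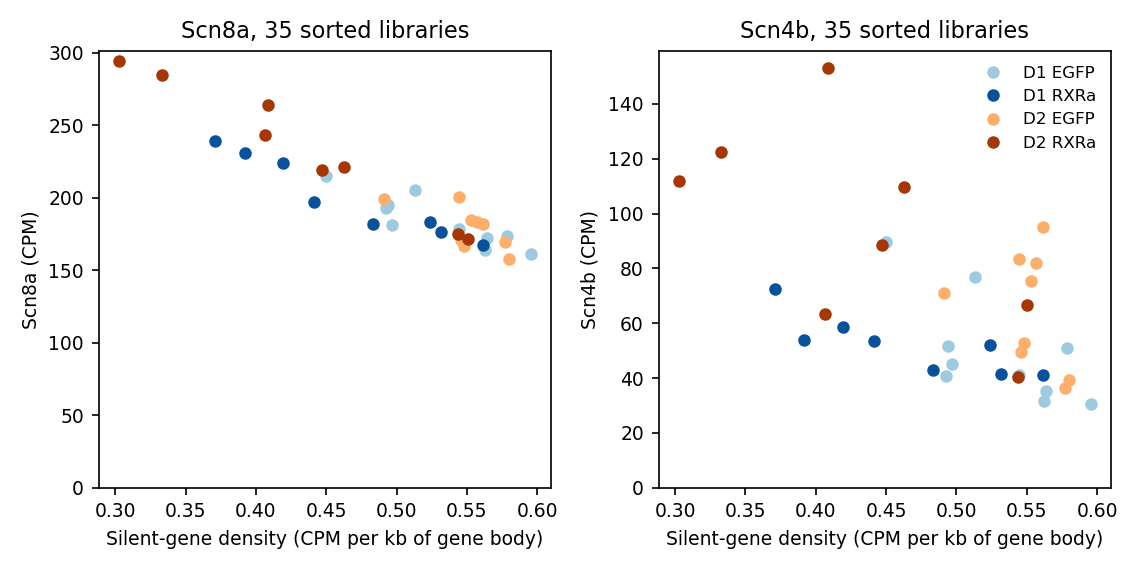
Scn8a (left) and Scn4b (right) in CPM against silent-gene density in CPM per kb of gene body, 1 point per sorted library. The density is per library total without TMM scaling, while the gene levels are TMM-scaled. Over the 35 libraries, r of the log2 values was -0.94 for Scn8a and -0.59 for Scn4b.

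The 3 D2 libraries with the most vector RXRa, female RXRa 4 at 710.2 CPM, male RXRa 5 at 618.6 CPM and male RXRa 3 at 590.9 CPM, had the 3 highest Scn2a levels and silent-gene densities of 0.303, 0.333 and 0.409. The library with the least vector RXRa in D2, male RXRa 1 at 134.2 CPM, had the lowest Scn2a of the 8 and a density of 0.544. In D1 the vector reached at most 284.6 CPM, and the highest Scn2a level, in male RXRa 1, went with 133.1 CPM of vector. Among D2 EGFP libraries, female EGFP 3 had the most vector GFP (859.8 CPM) and the highest Scn2a (355.1 CPM). Male EGFP 4 came next in vector GFP (757.7 CPM) and had 330.3 CPM of Scn2a. Male EGFP 2, with 308.3 CPM of vector GFP, had more Scn2a, at 339.6 CPM. In the D2 RXRa libraries density tended to be lower where the vector level was higher. The parts of vector level, RXRa and density in the Scn2a level were not tested. The D2 calls rested on few libraries, for members and for all genes alike. Without female RXRa 4, 0 members and 0 genes were called, without male RXRa 5, 1 member and 1633 genes, and without male RXRa 3, 4 members and 6102 genes. Without male RXRa 1, 8 members and 14766 genes were called, and without female RXRa 3, 8 members and 13649 genes.

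The scaling also bore on D2. With library totals in place of TMM the median of all genes was -0.20, 0.16 lower than with TMM, and of the genes called 2057 were higher and 9334 lower, against 6548 and 3135 with TMM. With totals, 5 members were called higher, with log2 fold changes of 0.20 for Scn1a, 0.21 for Scn8a, 0.23 for Scn3a, 0.36 for Scn3b and 0.38 for Scn2a, while Scn2b at 0.53 was not and Scn9a turned to -0.04.

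Neither D2 females nor D2 males alone gave a call in edgeR, for 0 of 8 members and 0% of genes, although 7 members in females and 5 in males had an unadjusted p under 0.05. Of all 43902 genes tested, 11080 in females and 8656 in males had an unadjusted p under 0.05 as well. All 8 log2 fold changes were above 0 in each sex, from 0.18 to 0.74 in females and from 0.08 to 0.70 in males. With library totals Scn9a turned below 0 in both sexes (-0.01 and -0.07), and with the density covariate Scn2a, Scn3a and Scn4b did in males (-0.02, -0.06 and -0.11). With DESeq2, 5 members and 3672 genes were called in D2 females, and 0 members and 23 genes in D2 males. In edgeR, 5 members and 6699 genes were called in females without RXRa 3, and 6 members and 5986 genes in males without RXRa 1. The sexes were not shown to differ, since the interaction test called 0 members (0% of genes) in D1 and in D2, with no unadjusted p under 0.05 and none called by DESeq2. The RXRa effect was not shown to differ between D2 and D1 either. That interaction called 0 members (0% of genes) in edgeR and in DESeq2. Of the members, Scn8a alone had an unadjusted p under 0.05, with a difference of 0.27 (SE 0.13, adjusted p = 0.601 in edgeR), where 3609 of 43902 genes did. The largest difference of a member was 0.59 (SE 0.33) for Scn2b. Among EGFP libraries, 0 members and 4.43% of genes were called between males and females, with 0 members at an unadjusted p under 0.05, none by DESeq2, and log2 differences from 0.00 for Scn9a to 0.19 for Scn4b.

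D2 and D1 nuclei were compared within each vector. Under EGFP, 0 of 8 members and 0.121% of genes were called, and DESeq2 called no member. An unadjusted p under 0.05 was reached by 4620 of 43902 genes and by 1 member. That was Scn9a, at 82.0 to 99.4 CPM in D2 and 77.8 to 89.7 CPM in D1, with a log2 difference of 0.11 (SE 0.05, adjusted p = 0.442 in edgeR). Scn4b had the largest difference, 0.37 (SE 0.21), at 36.4 to 95.2 CPM (median 70.9) in D2 and 30.7 to 89.8 CPM (median 43.0) in D1. Under RXRa, 5 of 8 members were called higher in D2, where 8.36% of genes were called and 6.85% called higher. These were all 3 beta genes and 2 alpha genes. Scn4b differed by 0.86 (SE 0.23, adjusted p = 0.0317 in edgeR) and was at 40.4 to 153.2 CPM (median 99.2) in D2 and 41.3 to 72.4 CPM (median 52.8) in D1. Scn2b differed by 0.84 (SE 0.24, adjusted p = 0.0351 in edgeR) and Scn3b by 0.51 (SE 0.15, adjusted p = 0.0353 in edgeR). For Scn2b and Scn3b, 6 of 8 D2 libraries were above every D1 library. Scn1a differed by 0.33 (SE 0.10, adjusted p = 0.0423 in edgeR) and Scn9a by 0.22 (SE 0.06, adjusted p = 0.03 in edgeR). With silent-gene density as a covariate 2 of the 8 were called, Scn9a at 0.20 and Scn3b at 0.32, and when only the 4 RXRa groups were fitted none was. Single libraries of either population ended these calls, with 0 members called in 9 of the 16 fits that each left out 1 library where 118 to 357 genes were called in all, and 8 members and 9886 genes called without D2 male RXRa 1. This comparison and the D2 comparison above share the D2 RXRa libraries.

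A list of 18 other genes of the sodium channel system was chosen with earlier results of these data known. In bulk, 17 passed the filter and 1 was called, Nalcn, the sodium leak channel, which fell by 0.29 on the log2 scale (SE 0.06, adjusted p = 0.0412 in edgeR) where 0.689% of all genes were called lower. In D1 none of the 18 was called, and the smallest p belonged to Unc79, a subunit of the Nalcn complex, at 0.37 (SE 0.11, adjusted p = 0.581 in edgeR), and Ank3, the ankyrin that anchors channels at the initial segment, at 0.32 (SE 0.11, adjusted p = 0.581 in edgeR). In D2, 13 were called higher with RXRa and 1 lower, where 14.9% of all genes were called higher and 7.14% lower. The 13 were all 5 initial segment genes (Ank3, Sptbn4, Nfasc, Nrcam, Trim46), all 4 partner genes (Cntn1, Nedd4l, Unc79, Unc80), 3 of 4 fibroblast growth factor homologous factors (Fgf11, Fgf12, Fgf14) and Nalcn. Ank3, for example, averaged 1095 CPM with RXRa and 790.5 CPM with EGFP, a log2 fold change of 0.48 (SE 0.12, adjusted p = 0.012 in edgeR). With silent-gene density as a covariate none of the 18 was called. The gene called lower was Scn7a, the glial and sensory sodium sensor, at -0.22 (SE 0.08, adjusted p = 0.0351 in edgeR), which averaged 52.7 against 61.5 CPM. Over all sorted libraries its level per kb of body lay above 50% of the silent genes, and it was singled out after its values were seen. Scn4a, Scn10a and Scn11a, pore genes that were not called, lay above 70.8% to 89.6% of the silent genes and had log2 fold changes from -0.14 to -0.07 in D2.

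Between D2 and D1 none of the 18 was called under EGFP, with the smallest p for Scn10a at -0.18 (SE 0.07) and Scn4a at -0.24 (SE 0.09), both in the range of the silent genes. Under RXRa, 1 of the 18 was called higher in D2, where 6.85% of all genes were. It was Nrcam, an adhesion protein of the initial segment and node, at 0.33 (SE 0.11, adjusted p = 0.049 in edgeR). In EGFP nuclei 1 of the 18 differed between the sexes, the X-chromosomal Fgf13, a factor that binds the channel's tail, where 3.43% of all genes were called lower in males. It averaged 206.2 CPM in males and 335.0 CPM in females, a log2 difference of -0.71 (SE 0.10, adjusted p = 7.5e-07 in edgeR), and it was singled out after its values were seen. Over all sorted libraries its level per kb of body lay above 68.6% of the silent genes, a set without X-chromosomal genes. The part of background counts in this sex difference was not tested.

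Across the 35 sorted libraries, with both populations, vectors and sexes pooled, the members varied together, as described by Pearson's r of log2 CPM. Within a library all genes share its depth and silent-gene density, and both differed between libraries. The closest pair was Scn2a with Scn3a (r = 0.983), and the neighbours Scn2b and Scn4b had r = 0.947. Scn9a stood apart, with r between 0.377 (Scn8a) and 0.699 (Scn1a). Against log2 silent-gene density, r was -0.943 for Scn8a, -0.806 for Scn1a, -0.589 for Scn4b and -0.317 for Scn9a. Among 11834 protein-coding genes with a mean of at least 10 CPM, the 2 most alike genes were Ppp1r1b (r = 0.979), the dopamine-regulated phosphatase inhibitor of striatal neurons, and Rasd2 (r = 0.975), a striatal GTPase, for Scn4b. For Scn2b they were Ddn (r = 0.983), a postsynaptic protein, and Eno2 (r = 0.981), the neuronal enolase. For Scn3b they were Kidins220 and Sf1 (r = 0.984 and 0.982), for Scn2a 4932438A13Rik (r = 0.990) and Gpm6a (r = 0.986), and for Scn3a Scn2a and Zfp207 (r = 0.979). Scn1a was most like Ecpas (r = 0.981) and Lmo7 (r = 0.980), Scn8a like Ppp2r2c and Slc6a17 (both r = 0.972), and Scn9a like Ndst3 (r = 0.926) and Unc5d (r = 0.911).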

How the data were processed

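RNA was measured by sequencing in 8 bulk and 36 sorted libraries of mouse accumbens, poly(A)-selected in bulk and ribosome-depleted with a stranded low-input kit in nuclei, per the labels' protocols. The deposited values are raw counts per gene, which the authors made with tools that include HISAT2 and featureCounts on GRCm38, per the submitters' processing notes. Versions, annotation release, strand setting and counted features are not given in the sources used here. Here, counts were fitted with edgeR 4.0.16 (quasi-likelihood test, filterByExpr, TMM scaling) in R 4.3.3, bulk as 2 groups and sorted as 8 groups together with the sexes weighted equally, in 13 comparisons, and p-values were adjusted over all genes (Benjamini-Hochberg, threshold 0.05). Each table has 2 entries for vector sequence, which entered neither the library sizes nor the tests. CPM was computed here from the deposited counts. Symbols and positions came from GENCODE M21, which holds 55394 of 55487 identifiers.

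Silent-gene density was taken from 1576 protein-coding genes on autosomes that span at least 5 kb and had no bulk count, as their median CPM (of the library total) divided by body length in kb. A member's background is this density times its body length, rescaled from the library total to the library size after TMM scaling. In 72 pairs of replicates the chi-square per degree of freedom was 1.91 to 73.5, so each library counted as 1 replicate. The fitting steps were tested on simulated data. The alternatives were DESeq2 1.42.0, limma 3.58.1 voom, other scalings and filters, the density covariate, background subtraction, a replicate block and leaving out single libraries. All 8 members are named throughout, with other genes of the list where called in bulk or between D2 and D1, or the 2 of smallest p, and the 2 genes of highest r with each member (log2 CPM, prior count 2, mean CPM of at least 10). The members and lists were chosen with earlier results of these data known. The marker Gpr52 was not matched and was left out of the D2 list. Results for 2 genes of the pathway list are not reported here, and its counts leave them out.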

Additional observations from a re-analysis of the deposited data

Results flagged for a closer look

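One of 80 groups of a member had a library far from the rest, where chance gives about 1 in 20. In D1 females with EGFP, Scn9a was at 85.8 CPM in replicate 5 and at 81.1 to 82.1 CPM in the other 4.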

How the results depend on the processing

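DESeq2 called 2 members in bulk and 5 in D2 females, where edgeR called 0, and 1619 genes in bulk against 687. In D2, 6 members were called, against 0 with silent-gene density as a covariate. For D2 against D1 under RXRa, 5 members were called, against 2 with library totals, 2 with the density covariate, 1 with limma voom and 0 when only the groups compared were fitted. Same-numbered libraries deviated from their group means with a correlation of -0.909 to 0.864, and nothing in the labels says that the numbers pair them. These correlations over few libraries cannot settle whether the numbers mark a shared source. With the replicate block, 0 members were called in D2 and 0 between D2 and D1 under RXRa, and all genes called fell from 9683 to 1 and from 3671 to 73, and in bulk from 687 to 0. Leaving out 1 library at a time gave 0 to 8 members in D2, 0 to 5 in D2 females, 0 to 6 in D2 males and 0 to 8 between D2 and D1 under RXRa, and 0 in the other comparisons. Genes called in D2 numbered 2547 with only the D2 groups fitted and 0 with the density covariate. Between D2 and D1 they went from 53 to 203 (density covariate), 134 (only the groups compared), 90 (DESeq2) and 30 (replicate block) under EGFP. Under RXRa they went from 3671 to 1114 (library totals), 1286 (density covariate), 864 (limma voom), 34 (only the groups compared) and 5722 (DESeq2). For the sexes they went from 1947 to 1022 with a mean CPM of at least 1. DESeq2 called 3672 genes in D2 females, 23 in D2 males, 4 in D1 females and 2 for the sex interaction in D1, where edgeR called 0. Leaving out 1 library gave 0 to 14766 genes in D2, 0 to 6699 in D2 females, 0 to 5986 in D2 males, 118 to 9886 between D2 and D1 under RXRa and 9 to 1016 in bulk. Without the 3 bulk libraries high in cortical markers, chosen after the data were seen, 1115 genes and 0 members were called. The cause of these changes was not tested. Scn9a was close to the silent-gene density in sorted nuclei, which limits how well its level there is known.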

Other observations

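The sorted library without a group had 173.6 CPM of Scn1a, 296.9 of Scn2a, 169.6 of Scn3a, 195.6 of Scn8a, 86.4 of Scn9a, 22.5 of Scn2b, 43.2 of Scn3b and 72.6 of Scn4b. All 8 values exceeded the level that its silent-gene density would give over the gene body, which was 74.0 CPM for Scn9a and 7.53 CPM for Scn4b.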
